A study of Homo sapiens with 9 samples.

Results

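The comparison described here is shRPL6-1, a short hairpin RNA directed against RPL6, with the control hairpin shCont in MHCC97H cells, a hepatocellular carcinoma line with high metastatic potential. Its members are 6 of the 9 libraries of the series, 3 with shRPL6-1 and 3 with shCont, and all 60683 genes of the deposited table, of which 16146 had enough counts to be tested. The 3 remaining libraries carry a separate hairpin against the same mRNA, shRPL6-2, and are used only where the hairpins are set against each other. The labels give the genotype WT for shCont and RPL6 knockdown for both other groups, and no drug, time point or clone is given. Hairpins were delivered by lentivirus, so shCont cells also carry a vector, and whether the cells were pooled or cloned is not given in the sources used here. The labels do not state whether the 3 libraries of each group are separate cultures. The p-values are therefore based on library-to-library spread that could be technical in origin. The study asked how RPL6 acts in metastasis of this cancer. Sterol synthesis and ribosomal protein genes are not described as groups here, and single genes of these kinds appear only where their change is large or differs between the hairpins.

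RPL6 is a protein of the large subunit of the cytosolic ribosome. Cells that run short of such a protein can slow translation, change the stability of p53 through free ribosomal proteins that bind MDM2, and switch on stress programmes. A short hairpin RNA is cut into a small duplex whose guide strand directs cleavage of a fully matching mRNA. The guide can also lower other mRNAs through its seed, the bases near its 5′ end, in the manner of a microRNA, and this is why a knockdown is usually read with more than 1 hairpin.

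The sequences of shRPL6-1 are shown because every difference below is a difference between cells with this guide and cells with the control. The target lies in the coding part of exon 3 of RPL6, at chr12:112408243-112408261 on the minus strand of GRCh38. In the mRNA context the target of 19 bases stands in capitals, and in the antisense strand, taken here as the guide, bases 2 to 8 from the 5′ end stand in capitals.
RPL6 mRNA around the shRPL6-1 target: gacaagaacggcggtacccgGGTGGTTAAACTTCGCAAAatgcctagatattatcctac
shRPL6-1 guide: uUUGCGAAguuuaaccacc
shRPL6-2 guide: uAAUAAGCcacuagccagc
The shRPL6-2 target is in exon 5, and the seeds of the guides differ. The full shRPL6-1 target matched transcripts of 6 annotated genes, which are RPL6 and 5 others named AL365366.1, AC009245.1, RPL6P27, AL603882.1 and AC115223.1.

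RPL6 itself was measured first, as a check of the labels. Its levels were 500, 518 and 478 CPM (the usual counts scaled to library size, here with TMM factors) in shCont and 13.6, 12.9 and 15.8 CPM in shRPL6-1. The groups lay far apart, and 2.83% of the shCont mean remained, a log2 fold change of -5.14 ± 0.25 (SE, adjusted p = 2.89e-06). With shRPL6-2 the log2 fold change was -5.04, and the direct test between the hairpins gave an adjusted p = 0.878. Of the 5 other genes that match the target, 3 were tested and fell in all 9 fits described below, AC009245.1 by 5.78, RPL6P27 by 5.64 and AC115223.1 by 5.96 on the log2 scale. They are near copies of RPL6 that can share its reads.

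Total counts ran from 13638468 to 16149480 over the 9 libraries. The share of counts in mitochondrially encoded genes was 6.79% ± 0.345 (SD, n = 3) in shCont and 5.03% ± 0.392 in shRPL6-1, with an exact two-sided permutation p = 0.1, the smallest that 3 against 3 can give. The third shCont library stood apart from the other 2 in how its levels followed GC content. Over genes, the rank correlation between transcript GC content and the difference of the library from the 9-library average was 0.267, against -0.610 and -0.577. It was 0.324, -0.102 and -0.023 in the shRPL6-1 libraries and 0.384, 0.646 and 0.132 in the shRPL6-2 libraries. The third shCont library thus lay within the shRPL6-1 range, and the other 2 shCont libraries lay below every other library. In 1121 of the 1374 genes that changed (81.6%), the third shCont library lay on the shRPL6-1 side of the mean of the other 2. No such share is given for all genes tested, so the 81.6% cannot be called particular to the genes that changed. The third shCont library is kept in every value unless stated, and its part in any single result was not tested beyond leaving it out.

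At an adjusted p under 0.05, 717 genes were higher with shRPL6-1 (4.44% of the genes tested) and 657 were lower (4.07%), together 8.51%. Of these, 716 and 654 did not overlap between the 3 shRPL6-1 and the 3 shCont libraries, against 31.6% of all genes tested that did not. The median log2 fold change was 0.90 among the genes that rose and -1.03 among those that fell, and 283 and 349 passed 2-fold. Over all genes tested the median was -0.01. In bulk RNA, fewer cells of a type and less RNA per cell cannot be told apart. Protein-coding genes made up 585 of the higher and 591 of the lower genes, and long non-coding genes 86 and 36.

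**Figure D1:**
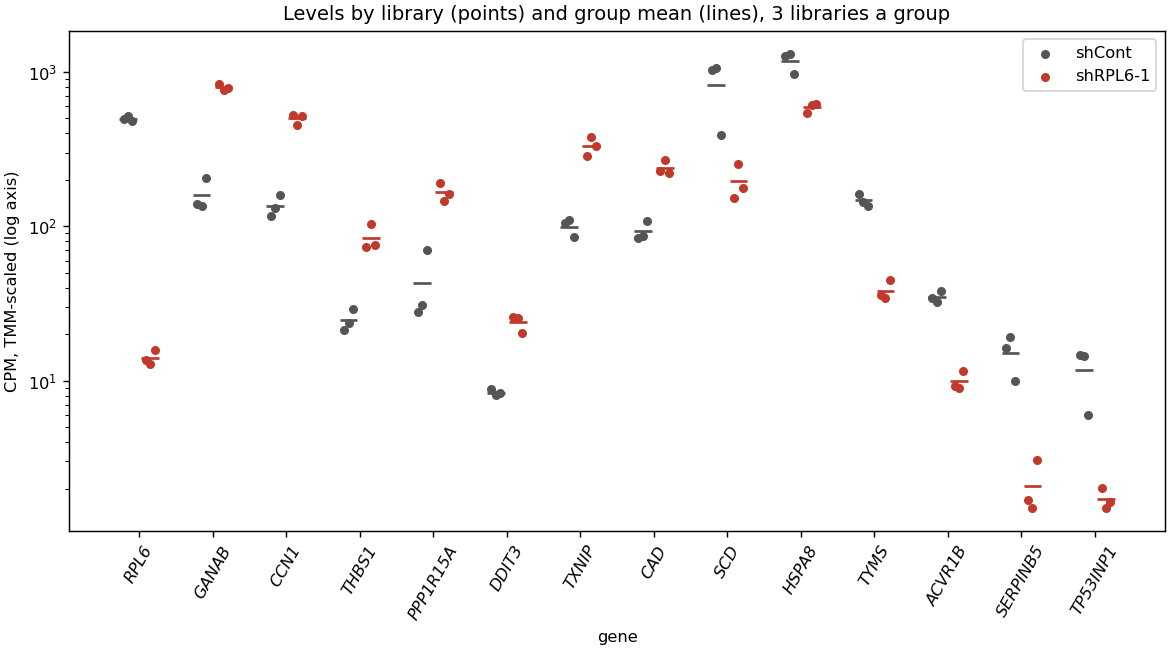
Levels of 14 genes in each library (points, CPM on a log axis) with the mean of each group (lines), shCont in grey and shRPL6-1 in red, 3 libraries a group. In every gene shown the groups do not overlap, and the third shCont library of SCD, at 393 CPM, lies nearest to the shRPL6-1 libraries.

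How many genes passed depended on which libraries entered the fit. Without the first or the second shCont library 71 and 51 genes were called higher and 70 and 48 lower, and without the third 2581 and 2202 were. Leaving out an shRPL6-1 library left 67, 124 or 110 higher and 36, 87 or 75 lower, and without the first shRPL6-2 library, which enters only through the shared estimate of spread, 335 and 297 were called. In all 9 fits that leave out 1 library, 44 of the higher and 28 of the lower genes were still called. Genes of this firmer set are pointed out below, and a named gene not so marked lost its call in at least 1 of those fits.

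**Figure D2:**
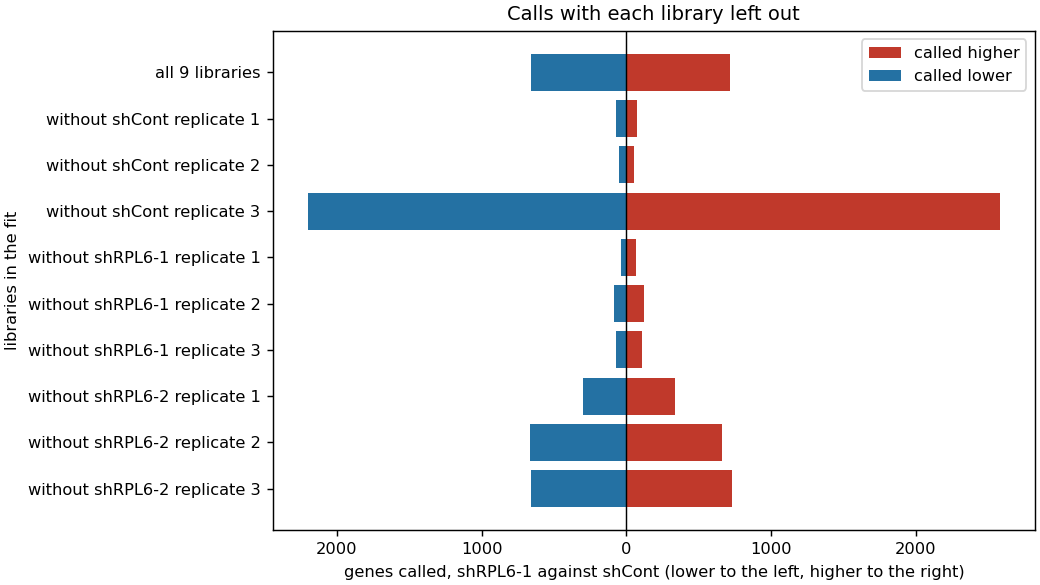
Number of genes called with shRPL6-1 against shCont (horizontal axis, higher to the right, lower to the left) when all 9 libraries or all but 1 enter the fit (vertical axis). The bar without the third shCont replicate, 2581 higher and 2202 lower, is the longest, and the bars without either other shCont library or without any shRPL6-1 library are among the shortest.

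The 12 protein-coding genes with the largest rise were taken among called genes with an average of at least 1 on the log2 CPM scale. Only genes whose shRPL6-1 and shCont libraries did not overlap were taken, and ribosomal protein and sterol synthesis genes were left out. The log2 fold changes of the 12 ranged from 1.88 to 4.35. GANAB, the catalytic subunit of glucosidase II, which trims glucose from new glycoproteins in the endoplasmic reticulum, was the most abundant of them. It read 139, 135 and 206 CPM in shCont and 840, 761 and 786 CPM in shRPL6-1, a log2 fold change of 2.31 ± 0.19 (adjusted p = 0.000323), and it held in all 9 fits. DET1, a part of a ubiquitin ligase complex, rose from 0.733, 0.422 and 0.674 CPM to 3.76, 3.68 and 4.21 CPM. CPA3, a carboxypeptidase known from mast cells, rose from 1.07, 1.33 and 0.809 CPM to 5.32, 6.47 and 6.18 CPM. Both are low genes, with log2 fold changes of 2.66 and 2.47, and both held in all 9 fits.

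Others of the 12 were low in shCont and spread more widely. MAMDC2, a matrix protein, read 0.466, 0.422 and 3.17 CPM in shCont and 14.9, 7.5 and 14.9 CPM in shRPL6-1. CERS1, a ceramide synthase, had a log2 fold change of 2.20, and CRB1, a protein of apical cell polarity, one of 2.07. NEDD8-MDP1, a readthrough of neighbouring genes that shares reads with both, had 3.37, and AL713999.1 and AL355987.1 had 4.35 and 3.18 from shCont levels under 1 CPM in every library. The last 3 rest on 0 to 10 counts a library in shCont.

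By the same rule, which leaves out RPL6, the 12 largest falls ranged from -1.97 to -2.86. SERPINB5, a serpin known as maspin, was the first of them, at 16.2, 19.2 and 9.98 CPM in shCont and 1.69, 1.5 and 3.06 CPM in shRPL6-1 (log2 fold change -2.86 ± 0.33, adjusted p = 0.00428). TP53INP1, a p53-induced protein of autophagy and cell death, read 14.7, 14.5 and 6 CPM and then 2, 1.5 and 1.63 CPM (-2.77 ± 0.37, adjusted p = 0.0071). FAM111B, a protease linked to DNA replication, read 42.8, 40.6 and 18.5 CPM and then 9.14, 6.75 and 7.2 CPM. These 3 genes and UNC5A, a netrin receptor that fell by 2.36 on the log2 scale, held in all 9 fits.

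SCD, the desaturase that makes monounsaturated fatty acids, showed how the third shCont library can matter. It measured 1024, 1063 and 393 CPM in shCont and 154, 255 and 178 CPM in shRPL6-1, a log2 fold change of -2.08 ± 0.39 (adjusted p = 0.0163). ACADSB, which oxidises short branched acyl groups, fell by 2.04 and read 3.37 CPM in that library against 11.4 and 12.5 CPM in the others. RASD1, a small GTPase induced by dexamethasone, fell by 2.04 with no such gap. AP3B2, RIMKLA, AMY2B, IFITM10 and SCAMP5 complete the 12, at -2.48, -2.27, -2.04, -1.97 and -1.97.

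Among long non-coding genes at the same level, MIRLET7BHG, the host transcript of let-7 microRNAs, rose from 9.26, 9.41 and 16.8 CPM to 41.1, 36.5 and 40.7 CPM and held in all 9 fits. LINC02709 and LINC02762 had log2 fold changes of 2.07 and 1.75. The largest falls were AC159540.2 at -1.86, AC092683.1 at -1.70 and LINC00472 at -1.56.

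**Figure D3:**
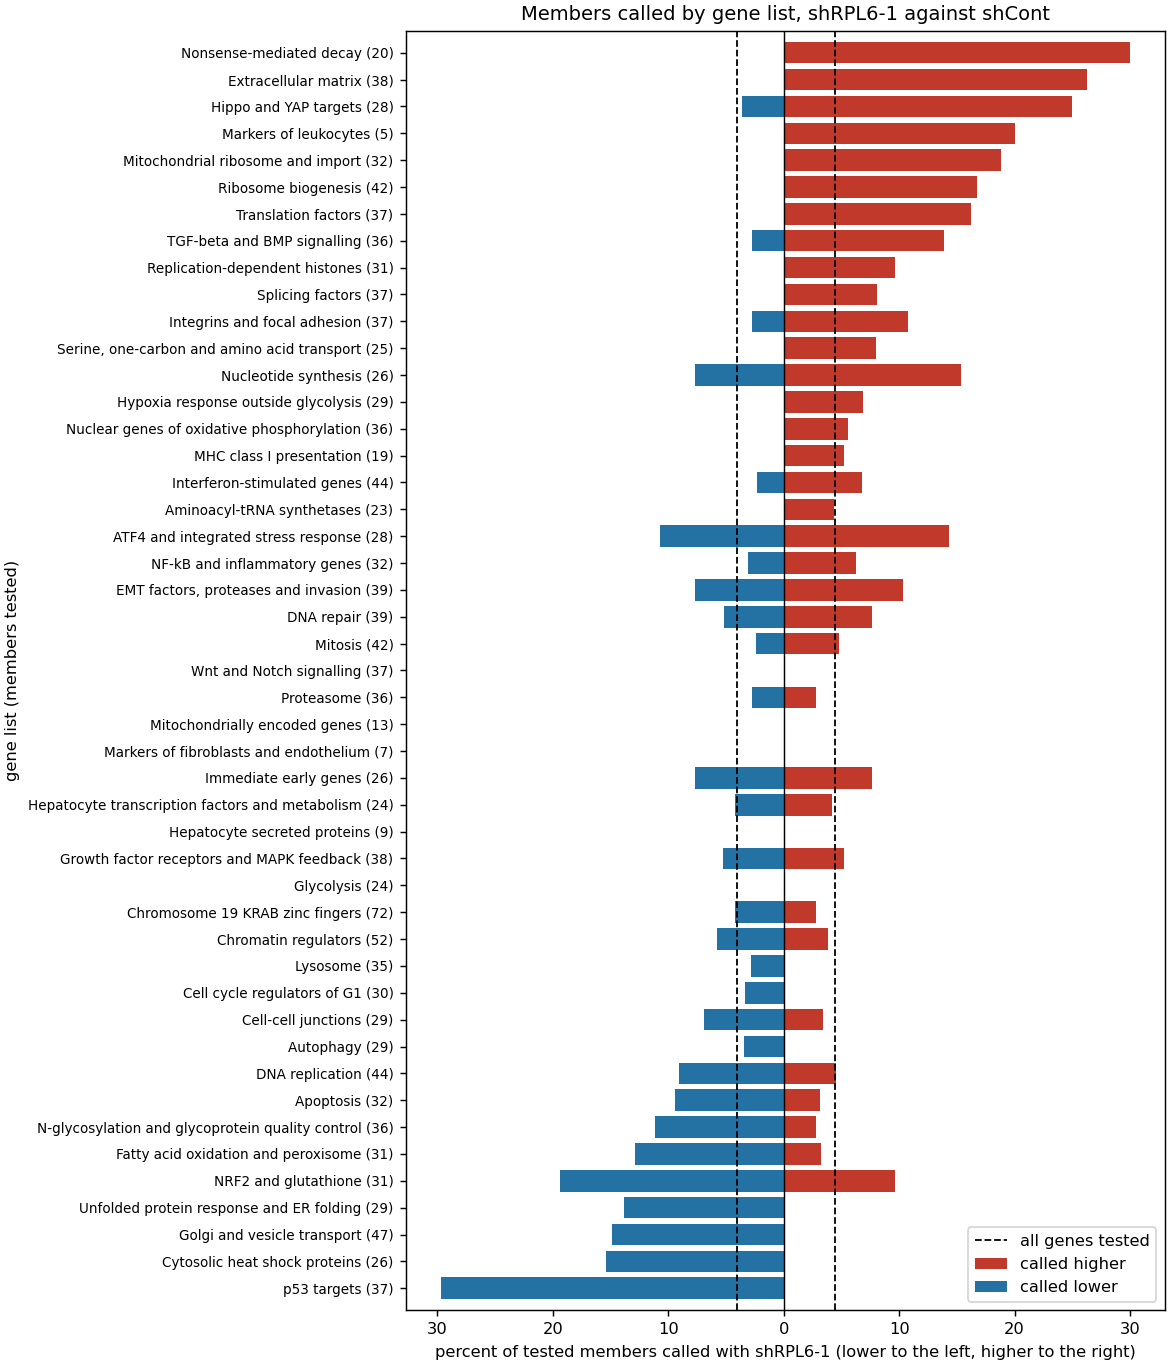
Percent of tested members called with shRPL6-1 in each of 47 gene lists (members tested in brackets), higher to the right in red and lower to the left in blue, with dashed lines at 4.44% and 4.07%, the shares over all genes tested. In this fit the p53 target list reaches furthest to the left, at 29.7%, and the nonsense-mediated decay list furthest to the right, at 30.0%.

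The functional groups are described by counts of members called and by their median, which are not tests of a list. Over all genes tested 4.44% were higher and 4.07% lower, the shares beside which each count stands. Genes of the extracellular matrix and of the Hippo pathway stood on the higher side with shRPL6-1. With shRPL6-2 the medians of these lists against shCont were 0.02 and 0.06. Of 38 matrix genes tested 10 rose and 0 fell (26.3% higher), with a median log2 fold change of 0.42. Among them are the collagens COL4A1, COL5A1, COL7A1 and COL12A1, the laminin chain LAMA4, and THBS1, CCN1, CCN2 and MAMDC2. With the correction for GC content and length 14 were higher and 1 lower, and without a single shCont or shRPL6-1 library 4 to 18 were higher. At an unadjusted p under 0.05 edgeR gave 19 higher and 2 lower, and DESeq2 called 14 and 1.

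CCN1, a matricellular ligand of integrins and a target of the YAP coactivator, measured 117, 131 and 159 CPM in shCont and 529, 451 and 522 CPM in shRPL6-1. Its log2 fold change was 1.88 ± 0.17 (adjusted p = 0.000716). THBS1, the adhesion protein thrombospondin, read 21.3, 23.5 and 29.3 CPM and then 73.3, 104 and 75.4 CPM (1.77 ± 0.21). CCN2, the connective tissue growth factor, read 20.1, 22 and 28.1 CPM and then 55.4, 60.9 and 59.5 CPM (1.32 ± 0.17). The groups of all 3 were well apart, and these calls and that of LAMA4 held in all 9 fits.

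The Hippo kinases restrain the coactivators YAP1 and WWTR1, which act through TEAD factors. Of 28 genes of this pathway and its targets 7 rose and 1 fell, with a median of 0.45. The GC and length correction gave 13 higher and 3 lower and DESeq2 called 11 and 5. Without a single shCont or shRPL6-1 library edgeR called 3 to 12 higher and 0 to 5 lower. The 7 are the targets CCN1, CCN2, ANKRD1, AXL, TGFB2 and NUAK2 and the LIM protein AJUBA, which binds the LATS kinases. ANKRD1, a muscle-related target, read 0.666, 1.45 and 2.9 CPM and then 8.89, 7.22 and 7.67 CPM. AXL, a receptor tyrosine kinase, rose by 1.5 and AJUBA by 1.19 on the log2 scale, AJUBA in all 9 fits. The kinases and factors themselves did not pass the test, with 0.38 for YAP1 (adjusted p = 0.122), -0.47 for WWTR1 and -0.33 for LATS1. With the GC and length correction YAP1 (0.63, adjusted p = 0.00407) and LATS2 (0.63, adjusted p = 0.0378) were called higher. That correction also called TEAD1 lower (-0.40, adjusted p = 0.0328), and WWTR1 and LATS1 were still not called. The GTPase regulator ASAP1 fell by 0.87.

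Promoter windows of RefSeq (GRCh38.p14, 250 bases before to 50 after the gene start) were searched for the TEAD letters GGAATG on both strands, since several of these genes are known TEAD targets. The letters were found in 6 of the 21 list members with a window (28.6%), against 14% of all 27305 windows, 11% of windows of genes that rose and 11.1% of those that fell. The windows of CCN2 and ANKRD1, with the leftmost match in capitals, are shown as examples, at chr6:131951511-131951566 and chr10:90921277-90921332, both on the minus strand.
CCN2: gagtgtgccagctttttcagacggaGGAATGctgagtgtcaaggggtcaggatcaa
ANKRD1: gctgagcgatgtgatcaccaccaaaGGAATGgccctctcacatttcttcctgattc
TGFB2 and NUAK2 also held the letters, and the windows of AJUBA and AXL did not. CCN1 had no window among those searched. The matrix list held GGAATG in 21.2% of its 33 windows. The AP-1 letters TGACTCA, searched in the same way, were in 4.76% of the Hippo windows and 3.03% of the matrix windows against 4.92% of all, and the ATF4 letters TGATGCAA in 0 of either and in 3 of 25 windows of the integrated stress response list against 0.923% of all. A match is a description of letters and not a bound site.

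Adhesion and invasion genes moved in both directions. Of 37 integrin and focal adhesion genes 4 rose and 1 fell, among them TLN1 (talin, 0.79), CAV1 (caveolin, 0.77) and FLNA (filamin, 0.58), with ITGAV at -0.95. Of 39 genes of epithelial to mesenchymal transition, proteases and invasion 4 rose and 3 fell, while the median lay close to 0. ADAM10, a protease that sheds surface proteins, fell by 0.98, and the GTPase RAC1 fell by 0.81.

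Of 29 junction genes 1 rose (3.45%) and 2 fell (6.9%). CDH2, N-cadherin, rose from 31.8, 30.5 and 35.7 CPM to 53.6, 61.4 and 57.4 CPM. CTNND1, the p120 catenin, fell by 0.79, and GJB2, a gap junction connexin, fell from 3.53, 2.05 and 2.43 CPM to 0.438, 0.136 and 0.34 CPM. In the TGF-beta and BMP list 5 of 36 rose and 1 fell. ACVR1B, a type I activin receptor, fell from 34.4, 32.2 and 38.1 CPM to 9.2, 9 and 11.5 CPM (-1.81 ± 0.17, adjusted p = 0.000857) in all 9 fits. BMP4, a bone morphogenetic protein, rose by 2.13 but did not meet the level or overlap rule of the 12 largest rises. TGFBI, a matrix protein induced by TGF-beta, rose by 0.99 and the activin subunit gene INHBB by 0.89.

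Targets of p53 stood on the lower side. Of 37 tested 0 rose and 11 fell (29.7% lower), with a median of -0.47, and with the GC and length correction 19 were lower and 1 higher. At an unadjusted p under 0.05 edgeR gave 3 higher and 19 lower, DESeq2 called 1 and 17, and without a single shCont or shRPL6-1 library edgeR called 2 to 15 lower. The 11 are SERPINB5 and TP53INP1, described above, MDM2, ZMAT3, SESN1, BTG2, RRM2B, POLH, TIGAR, CCNG1 and EDA2R. POLH, a translesion polymerase, read 52.9, 57 and 43.4 CPM in shCont and 25, 28.4 and 30.4 CPM in shRPL6-1 (-0.87 ± 0.16, adjusted p = 0.0166). MDM2, the ubiquitin ligase of p53, fell by 0.90, and ZMAT3 by 1.89. CDKN1A, the cell cycle inhibitor p21, had -0.95 and did not pass (adjusted p = 0.0531), nor did the death genes BAX (-0.04) and BBC3 (-0.18). Of 32 apoptosis genes 1 rose and 3 fell, with the caspase activator APAF1 at -1.05 and the BH3-only gene HRK at 1.28.

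The integrated stress response joins several kinases that phosphorylate eIF2 to the factor ATF4. Of its 28 genes 4 rose and 3 fell. ATF4 mRNA rose from 155, 154 and 176 CPM to 306, 381 and 323 CPM (1.06 ± 0.14, adjusted p = 0.0071). DDIT3, the factor CHOP, rose from 8.79, 8.03 and 8.29 CPM to 25.9, 25.6 and 20.5 CPM (1.52 ± 0.21), and both held in all 9 fits. PPP1R15A, the phosphatase subunit GADD34 that reverses eIF2 phosphorylation, rose from 27.7, 30.9 and 70.1 CPM to 192, 146 and 163 CPM.

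Other genes of the list moved in both directions. ASNS, asparagine synthetase, fell by 1.0, CHAC1, which degrades glutathione, fell by 1.23, and EIF2AK3, the kinase PERK, fell by 1.22. TRIB3 rose by 0.87. In the list of serine, one-carbon and amino acid transport genes 2 of 25 rose, SLC3A2 by 0.74 and MTHFD1L by 0.68, and 0 fell by edgeR. An unadjusted p under 0.05 gave 4 higher and 3 lower, DESeq2 called 4 and 1, and without the third shCont library edgeR called 6 and 4.

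Chaperones of the endoplasmic reticulum and the cytosol were on the lower side. Of 29 genes of the unfolded protein response and folding 0 rose and 4 fell (13.8% lower), with a median of -0.43, and 13 were lower and 2 higher with the GC and length correction. At an unadjusted p under 0.05 edgeR gave 1 higher and 15 lower, and DESeq2 called 0 and 13. Without a single shCont or shRPL6-1 library 0 to 13 were lower. HSPA5, the chaperone BiP, measured 1216, 1260 and 984 CPM in shCont and 664, 746 and 749 CPM in shRPL6-1 (-0.68 ± 0.15, adjusted p = 0.0282). DNAJB9 fell by 1.34, but the third shCont library, at 9.91 CPM, lay within the shRPL6-1 range. Of 26 cytosolic heat shock genes 0 rose and 4 fell by edgeR, where DESeq2 called 1 and 9 and an unadjusted p under 0.05 gave 3 and 11. The 4 include HSPA8 at -1.0, HSPB8 at -0.67 and the co-chaperone BAG3 at -0.70. HSPA8 read 1279, 1310 and 970 CPM and then 545, 615 and 623 CPM.

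In the secretory pathway 0 of 47 Golgi and vesicle genes rose and 7 fell (14.9% lower), with a median of -0.29. An unadjusted p under 0.05 gave 5 higher and 20 lower, DESeq2 called 1 and 12, and without a single shCont or shRPL6-1 library 0 to 16 were lower by edgeR. SEC24D, a cargo adaptor of the COPII coat, read 132, 119 and 78.4 CPM and then 33.6, 47.9 and 39.1 CPM (-1.45 ± 0.24, adjusted p = 0.011). RAB1A, a GTPase of transport to the Golgi, fell by 0.95, and AP3B2 is among the largest falls above. Of 36 genes of N-glycosylation and glycoprotein quality control edgeR called 1 higher, GANAB, and 4 lower, among them MGAT5 (-0.78) and ALG6 (-1.02). DESeq2 called 3 higher and 5 lower, the GC and length correction gave 2 and 3, and without the third shCont library there were 5 and 11. ALG6 was not called with the GC and length correction (adjusted p = 0.0531). Of 35 lysosome genes 1 fell, the proton pump subunit ATP6V0A1 (-0.78), and of 29 autophagy genes 1 fell, PIK3R4 (-1.18), and 0 rose in either, with 1 and 2 higher at an unadjusted p under 0.05 and 0 by DESeq2.

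Genes of ribosome assembly other than ribosomal proteins were on the higher side, and so were the calls among translation factors. Of 42 ribosome biogenesis genes 7 rose and 0 fell (16.7% higher), with a median of 0.34 and 13 higher with the GC and length correction. An unadjusted p under 0.05 gave 16 higher and 0 lower, DESeq2 called 13 and 0, and without a single shCont or shRPL6-1 library 0 to 15 were higher by edgeR. RRP12, needed for export of both subunits, read 67.3, 68.2 and 80.8 CPM and then 125, 156 and 114 CPM (0.87 ± 0.17), and NOC2L and RRP1 rose by 0.86 and 0.73. Of 37 translation factors 6 rose and 0 fell by edgeR, with a median of 0.10, where an unadjusted p under 0.05 gave 12 and 2 and DESeq2 called 9 and 0. Without a single shCont or shRPL6-1 library edgeR called 1 to 14 higher and 0 to 4 lower. The median with shRPL6-2 was -0.04. EIF1, which guards start codon choice, rose from 140, 143 and 164 CPM to 280, 353 and 277 CPM in all 9 fits. EIF4A1, an RNA helicase, rose by 1.18 and EIF3F by 1.40.

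Of 20 genes of nonsense-mediated decay 6 rose (30.0%) and 0 fell, with a median of 0.29. An unadjusted p under 0.05 gave 8 higher and 0 lower, DESeq2 called 6 and 0, and without a single shCont or shRPL6-1 library 0 to 6 were higher by edgeR. Of the 6, SMG5, SMG9 and CASC3 encode decay factors, and GAS5, SNHG1 and ZFAS1 are snoRNA host transcripts that this pathway is known to degrade. GAS5 read 92, 85.8 and 131 CPM and then 242, 224 and 221 CPM (1.16 ± 0.18, adjusted p = 0.00986), and SMG5 rose by 0.90. The helicase UPF1 had 0.01. Of 37 splicing factors 3 rose and 0 fell by edgeR (U2AF1 0.67, PRPF19 0.79, SF3B2 0.69). An unadjusted p under 0.05 gave 3 higher and 5 lower, DESeq2 called 3 and 2, and without the third shCont library edgeR called 5 and 11. Of 23 aminoacyl-tRNA synthetase genes 1 rose, AIMP2 by 0.58, and 0 fell by edgeR, where an unadjusted p under 0.05 gave 4 and 3 and DESeq2 called 2 and 2.

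Nuclear genes of the mitochondrial ribosome and import were also on the higher side. Of 32 genes of the mitochondrial ribosome and protein import 6 rose and 0 fell (18.8% higher), with a median of 0.43. An unadjusted p under 0.05 gave 17 higher and 0 lower, DESeq2 called 10 and 0, and without a single shCont or shRPL6-1 library 1 to 17 were higher by edgeR. TOMM22, a receptor of the outer membrane import pore, rose from 49.1, 51 and 54.3 CPM to 120, 125 and 108 CPM (1.20 ± 0.15, adjusted p = 0.00428) in all 9 fits, and MRPS34 and TIMM44 rose by 1.12 and 0.79. Of 36 nuclear genes of oxidative phosphorylation 2 rose, SDHB by 0.82 and NDUFB10 by 0.74, and 29 had a positive value. The share higher was 5.56%, near the 4.44% over all genes tested. The median was 0.27 and became 0.14 with the GC and length correction. The GC and length correction gave 7 higher, DESeq2 called 6, and without a single shCont or shRPL6-1 library edgeR called 0 to 14, with 14 when the third shCont library was left out. Of 13 mitochondrially encoded genes 0 were called in either direction by edgeR, with a median of -0.36, while an unadjusted p under 0.05 gave 0 higher and 5 lower and DESeq2 called 0 and 3.

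Redox genes split. Of 31 genes of NRF2 and glutathione 3 rose and 6 fell. TXNIP, which inhibits thioredoxin, rose from 105, 109 and 84.7 CPM to 286, 377 and 331 CPM (1.73 ± 0.21) in all 9 fits. NFE2L2, the factor NRF2 itself, fell by 1.31, and of its targets HMOX1 fell by 0.72, GCLC by 0.78, TXNRD1 by 0.92 and the exporter ABCC3 by 0.96, ABCC3 in all 9 fits. Of 29 hypoxia genes outside glycolysis 2 rose, among them ADM (adrenomedullin, 1.18), and 0 fell by edgeR, while an unadjusted p under 0.05 gave 4 higher and 6 lower and DESeq2 called 2 and 4. Of 24 glycolysis genes 0 were called by edgeR, with a median of 0.14, where an unadjusted p under 0.05 gave 1 higher and 4 lower and DESeq2 called 1 lower. Of 31 genes of fatty acid oxidation and the peroxisome 1 rose and 4 fell, among them HSD17B4 (-0.90) and catalase, CAT (-0.75).

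Nucleotide synthesis held large changes in both directions. Of 26 genes 4 rose and 2 fell. CAD, the enzyme of the opening steps of pyrimidine synthesis, rose from 83.8, 87 and 108 CPM to 230, 268 and 221 CPM (1.37 ± 0.17, adjusted p = 0.00431), and IMPDH2, rate-limiting for guanine nucleotides, rose by 1.24. TYMS, thymidylate synthase, fell from 162, 144 and 136 CPM to 35.7, 34.6 and 44.9 CPM (-1.94 ± 0.17, adjusted p = 0.000547). CAD and TYMS held in all 9 fits.

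Of 44 replication genes 2 rose (4.55%) and 4 fell (9.09%), and with the GC and length correction 8 and 8 were called. The 6 include POLD2 at 0.90, CCNE1 at -0.79 and FAM111B as above. Of 42 mitosis genes 2 rose (4.76%, AURKB 0.87 and KIF2C 0.54) and 1 fell (2.38%, KIF14 -0.85). Of 39 repair genes 3 rose (7.69%, CHEK2 0.86, XPA 0.82 and XRCC3 0.93) and 2 fell (5.13%). Of 30 G1 regulators 1 fell (RBL2 -1.06) and 0 rose by edgeR, where an unadjusted p under 0.05 gave 3 higher and 6 lower, DESeq2 called 1 and 3 and the GC and length correction gave 3 and 6. Of 31 replication-dependent histone genes 3 rose, H2BC5 by 0.96, H2BC11 by 1.03 and H1-2 by 0.65, the last not called with the GC and length correction (adjusted p = 0.46). Most histone transcripts lack a poly-A tail, and these libraries were selected for one.

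Of the interferon-stimulated genes 3 of 44 rose (6.82%) and 1 fell, while 37 had a positive value and the median was 0.65. The number higher was 8 with the GC and length correction, 8 by DESeq2, 16 at an unadjusted p under 0.05, and 0 to 19 without a single shCont or shRPL6-1 library, with 19 when the third shCont library was left out. IFIT2 rose from 124, 117 and 122 CPM to 231, 215 and 262 CPM (0.96 ± 0.15, adjusted p = 0.00909), HERC5 by 0.75 and IFIT1 by 1.18, and SLFN5 fell by 1.87. ISG15 (1.67, adjusted p = 0.144) and MX1 (1.14, adjusted p = 0.315) did not pass. The summed level of the list ran from 2738 to 6363 CPM over the shCont libraries and from 4785 to 9685 CPM over the shRPL6-1 libraries, so the groups overlapped. HLA-B, the 1 gene of 19 of class I presentation that was called, rose by 1.08, was not called with the GC and length correction (adjusted p = 0.275), and is among near-identical genes that can share reads.

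Of 38 growth factor genes 2 rose and 2 fell, with IRS1 at 0.82, RASD1 as above and SH2B3, an adaptor that dampens cytokine signalling, at -1.40. Of 26 immediate early genes 2 rose (JUN 0.89, KLF2 1.62) and 2 fell (7.69% each way), and NR4A1, an orphan nuclear receptor, fell from 193, 198 and 236 CPM to 110, 91.1 and 75.6 CPM in all 9 fits. Of 32 NF-kB and inflammatory genes 2 rose and 1 fell. CEBPD rose by 1.15 in all 9 fits and NFKB1 fell by 0.73, while IL6, with 1.49, had libraries that overlapped. Of 37 Wnt and Notch genes 0 were called by edgeR, while an unadjusted p under 0.05 gave 10 higher and 1 lower and DESeq2 called 3 higher, and without the third shCont library edgeR called 13 higher and 4 lower.

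The next 3 lists had shares near those over all genes tested, 4.44% higher and 4.07% lower. Of 36 proteasome genes 1 rose (PSMC3 0.85) and 1 fell (PSMD1 -0.89), 2.78% each way. Of 52 chromatin regulators 2 rose (3.85%) and 3 fell (5.77%), among them KDM1A (-0.73), KDM2B (0.74) and KDM3B (-0.63). Of 72 KRAB zinc finger genes of chromosome 19, 2 rose (2.78%) and 3 fell (4.17%), among them ZNF544 (0.96), ZNF562 (-1.76) and ZNF540 (-2.19). ZNF540 did not meet the level or overlap rule of the 12 largest falls. The zinc finger median was -0.24 and became 0.04 with the GC and length correction.

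The cells were labelled as liver cancer cells, and most genes of secreted hepatocyte proteins had too few counts to be tested. ALB and TTR had 0 counts in all 6 libraries, AFP at most 11 and APOA1 at most 3, while HNF4A had 69 to 155. The epithelial keratins KRT8 and KRT18 were high, with mean FPKM, a level per transcript length and depth, of 99.3 and 76.4 in shCont and 129 and 96.1 in shRPL6-1. Of 46 genes of secreted hepatocyte proteins 9 were tested and 0 called by edgeR, by DESeq2 or at an unadjusted p under 0.05. Among the 9, C3 read 729, 777 and 818 CPM in shCont, RBP4 55.6, 67.1 and 97.2 CPM and VTN 31.8, 29.3 and 69.4 CPM. Of 51 hepatocyte factors and enzymes 24 were tested, and 1 rose (ADH5 0.54) and 1 fell (CYP4F3 -2.06). CYP4F3 did not meet the level or overlap rule of the 12 largest falls. Of markers of fibroblasts and endothelium 0 of 7 tested were called by edgeR, with 3 lower at an unadjusted p under 0.05 and 2 by DESeq2, and with a summed level of 112 to 154 CPM in shCont and 97.1 to 100 CPM in shRPL6-1. Of markers of leukocytes 1 of 5 was called, CPA3, with 11.6 to 30.3 CPM in sum in shCont and 16.8 to 35.7 CPM in shRPL6-1, and PTPRC, which defines leukocytes, had at most 4 counts. Of the 16 leukocyte markers, 7 had 0 counts in all 6 libraries. The part of other cells in any result was not tested.

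Genes that rose and genes that fell differed in features that the test without the GC and length correction did not use. Median transcript GC content was 54.5% for the higher, 44.2% for the lower and 49.8% for the genes not called. Median transcript length was 2200, 3749 and 2677 bases. Among the 1600 genes with the lowest GC content 1.06% were called higher and 8.44% lower, and among the 1600 with the highest 6.81% and 0.938%. With GC content and length corrected in each library these shares were 6.5% and 8.19%, and 11.1% and 9.25%. Of the genes called without the correction 642 of 717 higher and 598 of 657 lower were still called with it in the same direction.

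**Figure D4:**
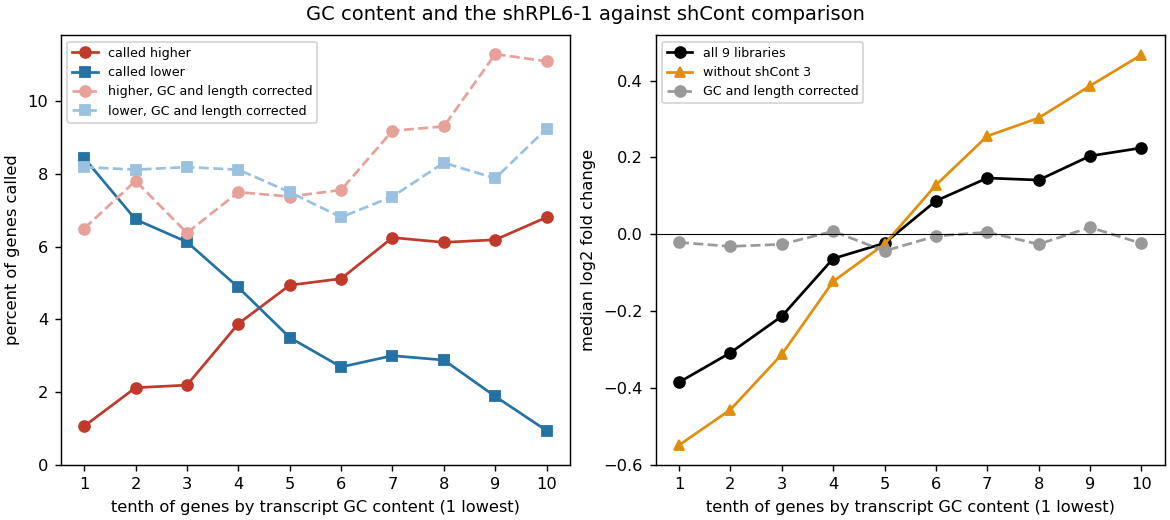
Left, percent of genes called (vertical axis) in 10 bins of transcript GC content of about equal size (horizontal axis), as fitted (solid) and with GC content and length corrected (dashed). Right, median log2 fold change in the same bins with all 9 libraries (black), without the third shCont library (orange) and corrected (grey). The solid lines cross, from 8.44% lower and 1.06% higher in the lowest bin to 0.938% and 6.81% in the highest.

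The 7-base match of the shRPL6-1 guide seed was looked for in annotated 3′ UTRs. It stood in 15 of 591 coding genes that fell (2.54%), in 5 of 585 that rose (0.855%) and in 114 of 11745 not called (0.971%). The genes that fell also had longer 3′ UTRs, with a median of 1542 bases against 663 and 948. Among 3′ UTRs over 2000 bases the shares were 3.81% of the lower, 4.72% of the higher and 2.41% of the genes not called. Among those of over 1000 and up to 2000 bases they were 2.01%, 0% (0 of 112) and 0.995%. From over 500 to 1000 bases they were 2.22%, 0% (0 of 124) and 0.279%, and up to 500 bases 0.877%, 0% (0 of 235) and 0.135%. The 15 are C2orf15, RELCH, CRYZ, ELOVL6, RDH10, NAV1, SPPL2A, FAR1, DNAJB14, BZW2, TMED4, FAAP24, MTMR9, RNF141 and ABHD2. Whether the guide acted on any of them was not tested.

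The direct test of shRPL6-2 against shRPL6-1 called 62 genes (0.384%), 11 higher and 51 lower with shRPL6-2. Of the 1374 genes called with shRPL6-1, 10 that rose and 14 that fell were among them. Values against shCont are given for both hairpins, which share their control libraries. The median of the matrix list was 0.42 with shRPL6-1 and 0.02 with shRPL6-2, and that of the Hippo list 0.45 and 0.06. The direct test called 4 of the matrix genes and 1 of the Hippo genes. Medians of the p53 target list were -0.47 and -0.35, and those of the mitochondrial ribosome and import list 0.43 and 0.57. TYMS, with -1.94 under shRPL6-1, stood at 0.07 under shRPL6-2, where its libraries read 173, 136 and 155 CPM, and the difference had an adjusted p = 0.00116. ACVR1B stood at -1.81 and -0.43 (difference adjusted p = 0.00932), and THBS1 had 1.77 and 0.08, with 23.6, 22.8 and 32.2 CPM in the shRPL6-2 libraries (difference adjusted p = 0.00972).

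**Figure D5:**
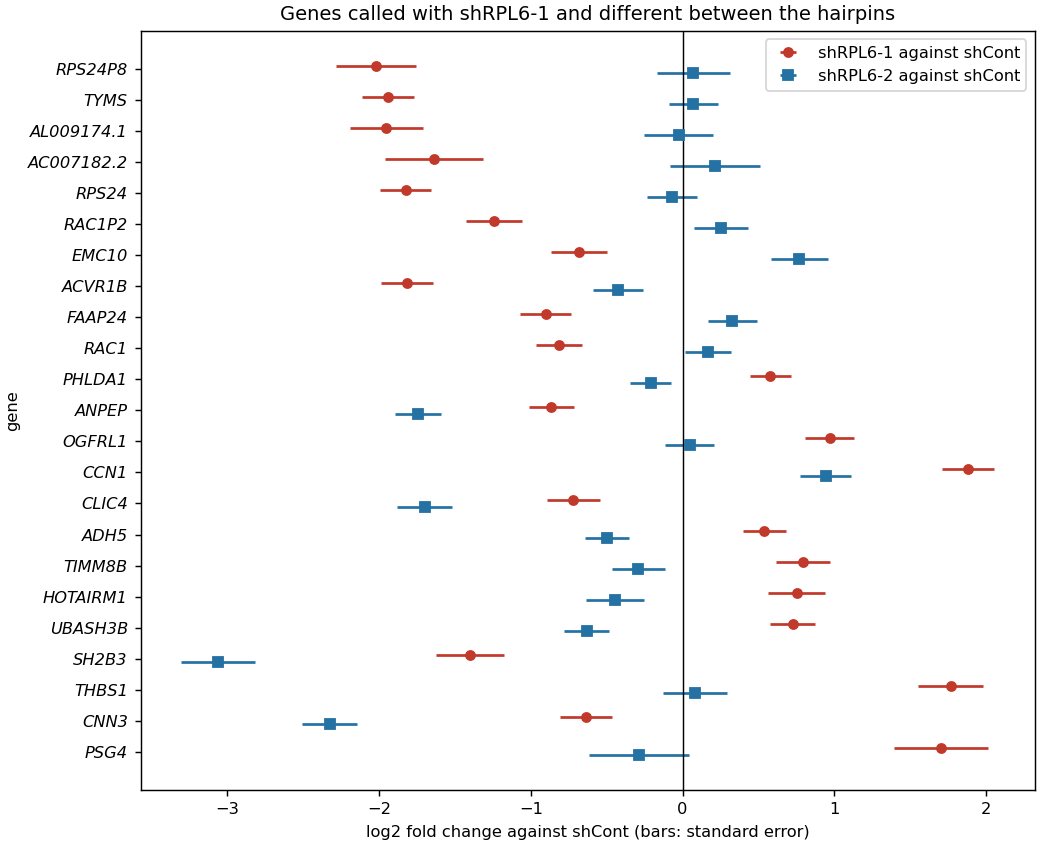
Log2 fold change against shCont (horizontal axis, bars are standard errors) of 23 of the 24 genes called with shRPL6-1 that also differed between the hairpins, with shRPL6-1 as red circles and shRPL6-2 as blue squares. MYOCD, which had 0 counts with shRPL6-2, is left out. TYMS lies at -1.94 with shRPL6-1 and 0.07 with shRPL6-2.

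CCN1 rose with both, by 1.88 and 0.94, and the difference passed (adjusted p = 0.0467), while the differences of CCN2 (1.32 and 0.60, difference adjusted p = 0.123) and ANKRD1 (2.24 and 0.56, adjusted p = 0.191) missed the threshold. PSG4, a pregnancy-specific glycoprotein, stood at 1.70 and -0.29 (difference adjusted p = 0.0269). CNN3, an actin-binding calponin, fell less with shRPL6-1 than with shRPL6-2, at -0.64 and -2.32, and so did SH2B3, at -1.40 and -3.06. MYOCD, a cofactor of serum response factor known from heart and smooth muscle, had 12, 15 and 14 counts with shRPL6-1, 1, 1 and 4 with shCont and 0 in all shRPL6-2 libraries. Against a floor of 3 counts over the shRPL6-2 group its mean was at least 12.1-fold higher with shRPL6-1.

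RPS24 fell from 702, 662 and 763 CPM to 226, 156 and 218 CPM with shRPL6-1, and read 695, 655 and 675 CPM with shRPL6-2. The pseudogenes RPS24P8, AL009174.1 and AC007182.2 stood at -2.02, -1.95 and -1.63 on the log2 scale under shRPL6-1, against 0.07, -0.03 and 0.21 under shRPL6-2. RAC1 and its copy RAC1P2 stood at -0.81 and -1.24, against 0.17 and 0.26. Such copies share reads with their parent gene, so these rows are not separate observations. The falls of RPS24, RPS24P8 and AL009174.1 held in all 9 fits. Of the 10 genes that were lower with shRPL6-1 and higher with shRPL6-2 than with shRPL6-1, FAAP24 held the seed match in its annotated 3′ UTR. TYMS, ACVR1B, RAC1, RPS24 and EMC10 did not.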

How the data were processed

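Poly-A selected, strand-marked libraries of 9 MHCC97H samples were read in pairs and, per the labels, processed by the authors with CASAVA 1.8, HISAT2, StringTie and edgeR on GRCh38. The deposited table gives a raw count per gene and library, summed from reads before any scaling. It also gives FPKM values computed by the authors, used here only for levels of marker genes. The sources used here name no annotation release, counter or strand setting, so overlapping and antisense genes cannot be told apart with certainty.

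Genes with low counts were removed by filterByExpr, which kept 16146 of 60683 genes. Libraries were scaled by TMM, and edgeR's quasi-likelihood test (edgeR 4.0.16, R 4.3.3) was fitted on all 9 libraries with 1 term per group. Benjamini-Hochberg adjustment was made over the 16146 genes, with a threshold of 0.05. DESeq2 1.42.0 was an alternative. Totals of 13638468 to 16149480 counts a library set the precision of low genes. Shares were compared with exact two-sided permutation tests.

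Named genes were the 12 coding and 3 long non-coding genes with the largest fold change in each direction at an average log2 CPM of at least 1, up to 3 called members of each of 47 gene lists, and 4 genes in each direction that differed between the hairpins. The 12 coding genes were taken among called genes whose shRPL6-1 and shCont libraries did not overlap, leaving out ribosomal protein and sterol synthesis genes. Other members are named as called members of a list or chosen after their values were seen. The comparison and the lists were chosen with earlier results of these data known. Other scaling, filters, a GC and length correction, a replicate block and fits without each library were tried. Sequences are from the study's hairpin design, GRCh38 and RefSeq. Transcript GC content, length and 3′ UTRs came from GENCODE, in which 96.3% of the gene identifiers were found. Results for some genes are not reported here.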

Additional observations from a re-analysis of the deposited data

Results flagged for a closer look

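Among the genes called with shRPL6-1, 8 are listed here because the direct test of shRPL6-2 against shRPL6-1 gave the largest differences between the hairpins. Lower with shRPL6-2 were PSG4, by a log2 difference of -1.99, CNN3 by -1.69 and THBS1 by -1.68. MYOCD had a fitted difference of -6.74, which depends on the prior count because its shRPL6-2 libraries held 0 counts. Higher with shRPL6-2 were TYMS, by 2.01, and the pseudogenes RPS24P8, AL009174.1 and AC007182.2, by 2.09, 1.93 and 1.85. These 3 pseudogenes can share reads with RPS24.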

How the results depend on the processing

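The fall of RPL6 ranged from -5.10 to -5.28 and was called in every fit. Against 717 higher and 657 lower genes (1374) with shRPL6-1, DESeq2 gave 1287 and 1276 (2563), the GC and length correction 1351 and 1278 (2629), no filter on low counts 368 and 255 (623), and only the 2 groups compared 428 and 411 (839). Without 1 library the total ran from 99 (without the second shCont library) to 4783 (without the third), the higher from 51 to 2581 and the lower from 36 to 2202. For shRPL6-2 against shRPL6-1, with 62 genes called (11 higher, 51 lower), DESeq2 gave 323 (93, 230), the GC and length correction 194 (39, 155), no filter 39 (30 lower), and an unadjusted p under 0.05 with a log2 fold change beyond 1 gave 348 (116, 232). Without 1 library these ran from 8 to 194, from 3 to 43 and from 4 to 151, the most without the third shCont library. Scaling by RLE or upper quartile and a mean of at least 1 CPM kept all counts within 1.5 times. The cause was not tested, apart from fewer samples in fits that leave some out.

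With the replicate block 19 higher, 13 lower and 32 in all were called with shRPL6-1, and 2, 3 and 5 between the hairpins. With the GC and length correction beside the block 741 higher and 672 lower were called, and 109 of the 133 named genes kept the call, against 16 with the block alone. Same-numbered shCont and shRPL6-1 libraries correlated at -0.309, 0.292 and 0.056. The labels do not say whether the numbers pair the samples, and so few correlations of mixed sign cannot decide it. Of 133 named genes besides RPL6, 117 lost the call with the block and 3 with the GC and length correction, 26 were called without any single library, and 0 reversed.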
